A study of Mus musculus with 12 samples.

Results

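The Creb1 dependence of the TVA response was read from all 12 of the 12 RNA-seq libraries of the series as a 2 by 2 interaction, in which the response to TVA of control cells was subtracted from that of *Creb1*-depleted cells. The cells were mouse primary CD8+ T cells that had been activated, treated with siRNA that targeted no gene (siNTC) or *Creb1* (si*Creb1*), and cultured for 24 h with *trans*-vaccenic acid (TVA) or with its vehicle, DMSO. Each of the 4 groups, siNTC with DMSO, siNTC with TVA, si*Creb1* with DMSO and si*Creb1* with TVA, had 3 libraries. All 4 groups were thus activated and siRNA-treated, and none shows resting or untreated cells. The knockdown was transient and partial. Of the 54532 genes listed, 11550 had a mean FPKM (fragments scaled to gene length and to the size of the library) of at least 1 over the 12 libraries and were tested. Effects are differences of log2(FPKM + 1), so folds of weakly expressed genes come out too small.

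TVA is a *trans* fatty acid of dairy and beef fat. The study places CREB1 at the end of a route in which TVA relieves the inhibitory coupling of the receptor GPR43, so that cAMP rises and protein kinase A phosphorylates CREB1. CREB1 is a leucine zipper transcription factor that binds the cAMP response element and, once phosphorylated, recruits the coactivators CBP and p300. In T cells, cAMP is better known for restraining activation through protein kinase A, whereas CREB1 also lies downstream of the T cell receptor. The interaction asks which genes responded to TVA differently once *Creb1* had been lowered. A gene was called where its adjusted *P* was under 0.05 in limma, with Benjamini-Hochberg adjustment over all genes tested.

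*Creb1* (ENSMUSG00000025958, chr1:64532645-64604548, GRCm38) was low in every si*Creb1* library. It stood at 11, 10.3 and 10.5 FPKM in siNTC cells, at 11, 12 and 12.4 FPKM with TVA, at 1.19, 1.29 and 1.77 FPKM in si*Creb1* cells and at 1.81, 1.67 and 1.17 FPKM in si*Creb1* cells with TVA. The 6 siNTC and the 6 si*Creb1* libraries did not overlap (two-sided exact permutation test over 924 divisions, *P* = 0.00216, the smallest it can give), and the knockdown left 13.4% of the mean without TVA and 13.1% with TVA. The libraries held 16660234 to 24602484 recovered reads, with group medians of 20236123 (siNTC), 18439724 (siNTC with TVA), 21995620 (si*Creb1*) and 23616471 (si*Creb1* with TVA). All 10 markers of CD8+ T cells had a mean of at least 1 FPKM, with *Cd8a* at 415.6 to 417.8, 422.8 to 425.4, 441.3 to 446.6 and 449.6 to 450.4 FPKM in the same order of groups, which is used throughout. Their sum was 4519.7 to 4574 FPKM, 4228 to 4395, 4136 to 4182 and 3990.04 to 4160.01. Of these markers, 7 were called lower and 1 higher in si*Creb1* cells without TVA (7.21% and 6.52% of all genes were), with a median of -0.14, and 5 lower and 1 higher with TVA (5.51% and 4.64% of all), with a median of -0.095. None had a called interaction in limma, at unadjusted *P* under 0.05 or with voom, and the part of this difference in the results was not tested. No source used here states that replicates came from separate cultures, so *P* values measure the spread between these libraries, which may be technical. In bulk RNA, fewer cells of a type and less RNA per cell cannot be told apart.

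The interaction was called for 259 genes (2.24% of those tested), and it was negative for 206 of them and positive for 53. TVA itself moved 852 genes (7.38%) in siNTC cells, 519 up and 333 down, and 62 genes (0.537%) in si*Creb1* cells, 14 up and 48 down. These TVA calls numbered 556 and 37 after rescaling to TPM and 1048 and 161 with voom, the 62 were 34 with a replicate block, and leaving out 1 library gave 558 (without siNTC with TVA replicate 2) to 767 and 30 to 67. The 62 were 33, 30, 35, 35 and 31 without si*Creb1* replicate 1 or 2 or si*Creb1* with TVA replicate 1, 2 or 3. These TVA effects share no libraries. The 852 genes were chosen on the siNTC libraries, whereas their effect in si*Creb1* cells comes from other libraries. The 519 genes that rose had a median effect of 0.32 in siNTC cells and of 0.036 in si*Creb1* cells, and the 333 that fell had medians of -0.17 and -0.033. The interaction count was 152 after rescaling to TPM and 449 with voom on recovered reads, and it was 168, 172 and 172 without si*Creb1* replicate 1, si*Creb1* replicate 2 and siNTC with TVA replicate 2. All 259 genes had the same sign under every alternative that tested them, and 121 of them were called in all 12 fits that left out 1 library and in all 7 other fits on the same genes. These fits reuse the libraries that chose the genes, so the shared sign is a description.

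Genes were sorted by whether each TVA effect and the interaction was called. A response was lost, meaning called in siNTC cells with a called interaction that opposed it, for 233 genes, of which 191 had risen and 42 had fallen. Of these, 1 gene, the histone chaperone gene *Asf1b*, still rose in si*Creb1* cells, so the class includes partial loss. A response was kept, meaning called in both backgrounds in the same direction with no called interaction, for 31 genes, 7 that rose and 24 that fell. It was enhanced for 3 genes, all of which fell, gained in si*Creb1* cells for 8 genes, and reversed for 1 gene, *Gpsm2*. A further 14 genes had a called interaction and no called TVA effect in either background. The smaller classes depended on the fit. Lost falls numbered 15 with TPM, 95 with voom and 18 (without si*Creb1* replicate 1 or 2) to 37 without 1 library, and kept genes 20, 58 and 21 to 30. Gained responses numbered 2 with TPM, 25 with voom, 1 with a replicate block and 1 (without si*Creb1* replicate 2) to 8 without 1 library, and enhanced ones 0, 5, 2 and 1 to 3. Reversed ones numbered 0, 7, 0 and 0 to 3 in the same fits. At unadjusted *P* under 0.05 in limma for the TVA effect in si*Creb1* cells, 36 were reversed, with 173 lost rises and 25 lost falls. Of the 42 lost falls, 39 had an estimate above 0 in si*Creb1* cells, with a median of 0.056. The remaining 584 genes that responded in siNTC cells could not be placed. Their 95% interval of the interaction included the siNTC estimate with its sign turned for 534, no change for 171 and both for 127. The count of 534 takes the siNTC estimate as exact, so it overstates how many genes could have lost their response completely. At unadjusted *P* under 0.05 in limma for the TVA effect in si*Creb1* cells, 146 responses were kept, against 31.

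**Figure D1:**
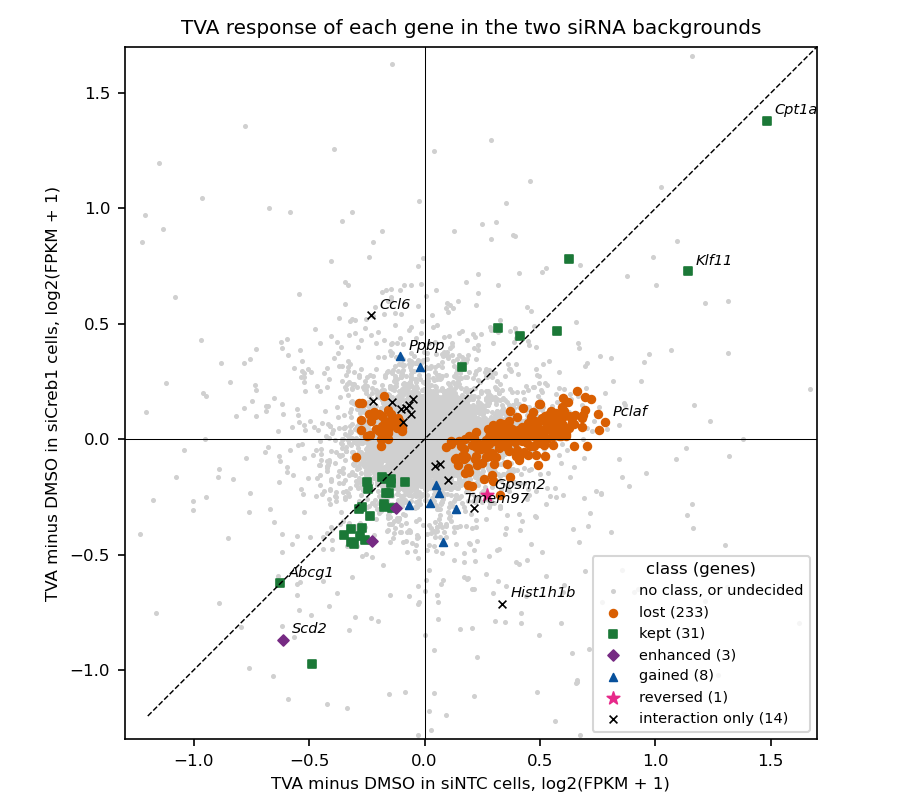
Each point is 1 of the genes tested, plotted by its TVA effect in siNTC cells (x axis) and in siCreb1 cells (y axis), both as differences of log2(FPKM + 1), with colours for the response classes and a dashed line where both effects are equal. The 233 lost genes lie along the horizontal line at 0, whereas kept genes such as Cpt1a and Abcg1 lie near the dashed line, and 16 genes fall outside the axes.

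The interaction is also the knockdown effect with TVA minus the knockdown effect without TVA, and for most lost genes the larger term was the one without TVA. Of the 191 lost rises, 169 were already raised by the knockdown without TVA (6.52% of all genes tested were, and 13.7% moved either way), and 75 were lowered by it with TVA (5.51% of all, and 10.1% moved either way), with both for 53. Their median knockdown effect was 0.27 without TVA and -0.14 with TVA, and a median of 64.4% of the interaction came from the libraries without TVA. For 70 of these genes the siNTC libraries with DMSO stood below all 3 other groups, at unadjusted *P* under 0.05 in the same limma fit, as the only group apart, for 92 they stood below and the siNTC libraries with TVA above all others, and for 17 the siNTC libraries with TVA stood above all 3 others as the only group apart. Of the 42 lost falls, 32 were already lower in si*Creb1* cells without TVA (7.21% of all), and 13 were higher in si*Creb1* cells with TVA (4.64% of all), with medians of -0.18 and 0.068. After rescaling to TPM, the counts were 171 and 19 for the lost rises and 18 and 14 for the lost falls. The knockdown calls of all genes, 753 higher and 833 lower without TVA and 536 and 636 with TVA, were then 908 and 297, and 620 and 120. These counts share libraries with the interaction that chose the genes and are a description.

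**Figure D2:**
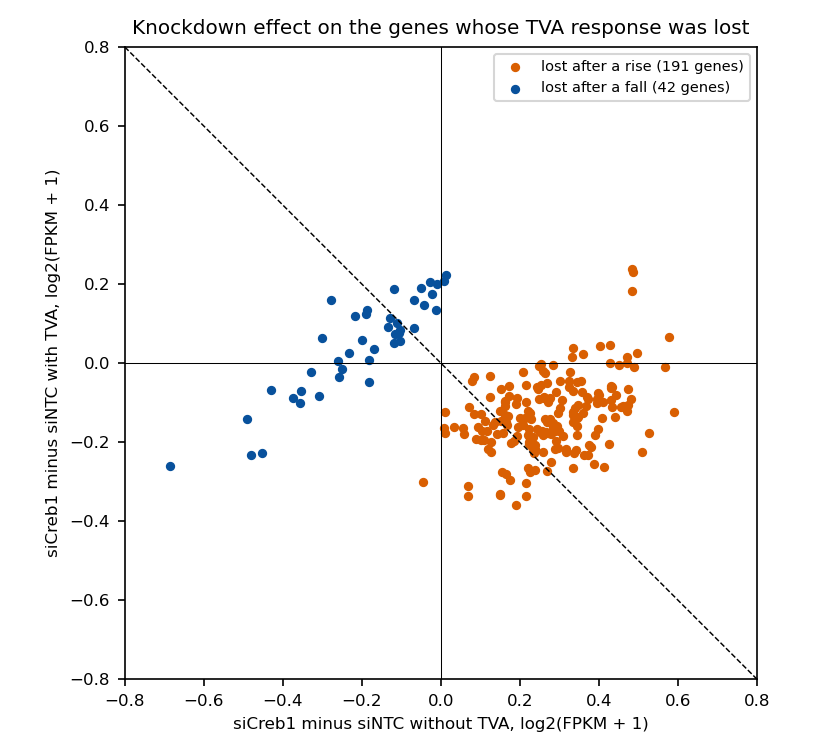
Each point is a gene whose TVA response was lost, plotted by the effect of the knockdown without TVA (x axis) and with TVA (y axis), as differences of log2(FPKM + 1), with a dashed line where the effects are equal in size and opposite. Most of the 191 lost rises lie to the right of 0 and a little below it, and most of the 42 lost falls lie to the left of 0.

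Promoter sequence was described because the genes of a class moved together. A RefSeq promoter (GRCm38.p6, 250 bases before to 50 after the start) was matched for 7996 of the 11550 genes and for 208 of the 259 called. Words were sought on both strands and were chosen with the classes known. The full cAMP response element TGACGTCA was in 7 of 160 lost rises (4.38%), in 2 of 30 lost falls (6.67%) and in 3.50% of all 7996 promoters. Its shorter core TGACG, which lies within the full element, was in 34.4%, 33.3% and 34.7%. Lost rises held E2F words (TTTGGCGC, TTTGGCGG, TTTCCCGC or TTTCGCGC, which can overlap each other) in 20.6% against 5.03% of all, the cell cycle homology region word TTTGAA in 36.9% against 12.2%, and CCAAT in 66.2% against 39.7%. The 7 lost rises with the full element were *Cenpe*, *Cenpw*, *Dtl*, *Mcm5*, *Ncaph*, *Ncaph2* and *Ndc80*, which act in replication, chromosome condensation or the kinetochore. Of the 18 kept or enhanced falls with a promoter, 0 held the full element or an E2F word, 6 (33.3%) held the interferon response word (GAAA, NN and GAAA in a row) against 3.30% of all, and 1 held the sterol response word TCACNCCAC against 1.04%.

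The 200 bases before the start are shown for 5 genes that were picked because they hold these words. They do not stand for their classes, as only 7 of 160 lost rises (4.38%) held the full element. Sequences run 5′ to 3′ on the strand of the gene, with the full element and the E2F, interferon and sterol response words in capitals. The shorter core, CCAAT and TTTGAA, which is also in *Igtp*, are left in lower case wherever they lie outside those words. *Mcm5*, a subunit of the replicative helicase, and *Cenpe*, a kinetochore motor, hold the full element, whose first base lies 99 and 34 bases before the start, and *Mcm5* also holds a pair of overlapping E2F words. *Clspn*, a checkpoint adaptor at the replication fork, holds an E2F word on the opposite strand and no full element. *Igtp*, an interferon-inducible GTPase, holds an interferon response word and *Hmgcs1*, an enzyme of cholesterol synthesis, a sterol response word. A match is a description of these letters and not of binding.
Mcm5, lost rise, chr8:75109309-75109508, plus strand: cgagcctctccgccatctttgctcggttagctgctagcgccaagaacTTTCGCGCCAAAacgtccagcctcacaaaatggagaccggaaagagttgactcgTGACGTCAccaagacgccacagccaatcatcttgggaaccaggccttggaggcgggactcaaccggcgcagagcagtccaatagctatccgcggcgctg
Clspn, lost rise, chr4:126556780-126556979, plus strand: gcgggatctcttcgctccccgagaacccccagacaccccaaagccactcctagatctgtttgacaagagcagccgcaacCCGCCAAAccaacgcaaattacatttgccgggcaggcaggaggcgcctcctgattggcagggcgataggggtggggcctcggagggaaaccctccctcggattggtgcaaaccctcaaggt
Cenpe, lost rise, chr3:135212363-135212562, plus strand: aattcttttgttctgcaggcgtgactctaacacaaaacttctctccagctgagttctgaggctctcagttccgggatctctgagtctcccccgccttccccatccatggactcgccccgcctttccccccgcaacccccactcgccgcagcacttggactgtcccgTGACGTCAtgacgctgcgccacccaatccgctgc
Igtp, kept fall, chr11:58199356-58199555, plus strand: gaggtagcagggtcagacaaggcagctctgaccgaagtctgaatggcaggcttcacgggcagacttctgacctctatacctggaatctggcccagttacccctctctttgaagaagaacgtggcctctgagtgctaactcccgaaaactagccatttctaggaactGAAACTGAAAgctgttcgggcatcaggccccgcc
Hmgcs1, enhanced fall, chr13:119690151-119690350, plus strand: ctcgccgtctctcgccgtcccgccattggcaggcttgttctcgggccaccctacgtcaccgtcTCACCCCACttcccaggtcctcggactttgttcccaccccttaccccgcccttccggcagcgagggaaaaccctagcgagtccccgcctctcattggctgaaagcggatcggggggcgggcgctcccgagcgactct

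Cell cycle genes made up most of the lost rises, with 112 of the 191 (58.6%) on the cell cycle lists and 79 outside them. Of the 316 tested genes on these lists, 113 had a called negative interaction (1.78% of all genes did) and 0 a called positive one. None of the 31 kept genes was on them, but these lists held 316 of the 11550 genes tested, so 0 of 31 is near their share. Of the 99 genes for mitosis, the spindle and the kinetochore, 91 rose with TVA in siNTC cells (4.49% of all genes did) and 0 in si*Creb1* cells by limma (0.121% of all), where 8 rose at unadjusted *P* under 0.05 and 0 with voom. Their medians were 0.44 and 0.039, against -0.0056 and -0.0012 over all genes. Their interaction was called for 65, all negative, with a median of -0.43 against 0.0020 over all genes. Of the 64 genes for DNA replication, 46 rose in siNTC cells and 1 in si*Creb1* cells by limma, where 11 rose at unadjusted *P* under 0.05 and 1 with voom. Estimates in si*Creb1* cells were above 0 for 48 of the 64 and below 0 for 16, with a median of 0.040 against 0.35 in siNTC cells. Of these 64 genes, 27 had a called negative interaction (median -0.29).

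The mean log2 level of the mitosis list, relative to siNTC cells with DMSO, was 0.41 to 0.42 in siNTC cells with TVA, 0.23 to 0.25 in si*Creb1* cells and 0.28 in si*Creb1* cells with TVA. The replication list gave 0.33 to 0.36, 0.22 and 0.26 to 0.28 in the same groups. The groups of neither list overlapped, and the si*Creb1* cells without TVA already lay nearer to the siNTC cells with TVA than to those with DMSO.

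**Figure D3:**
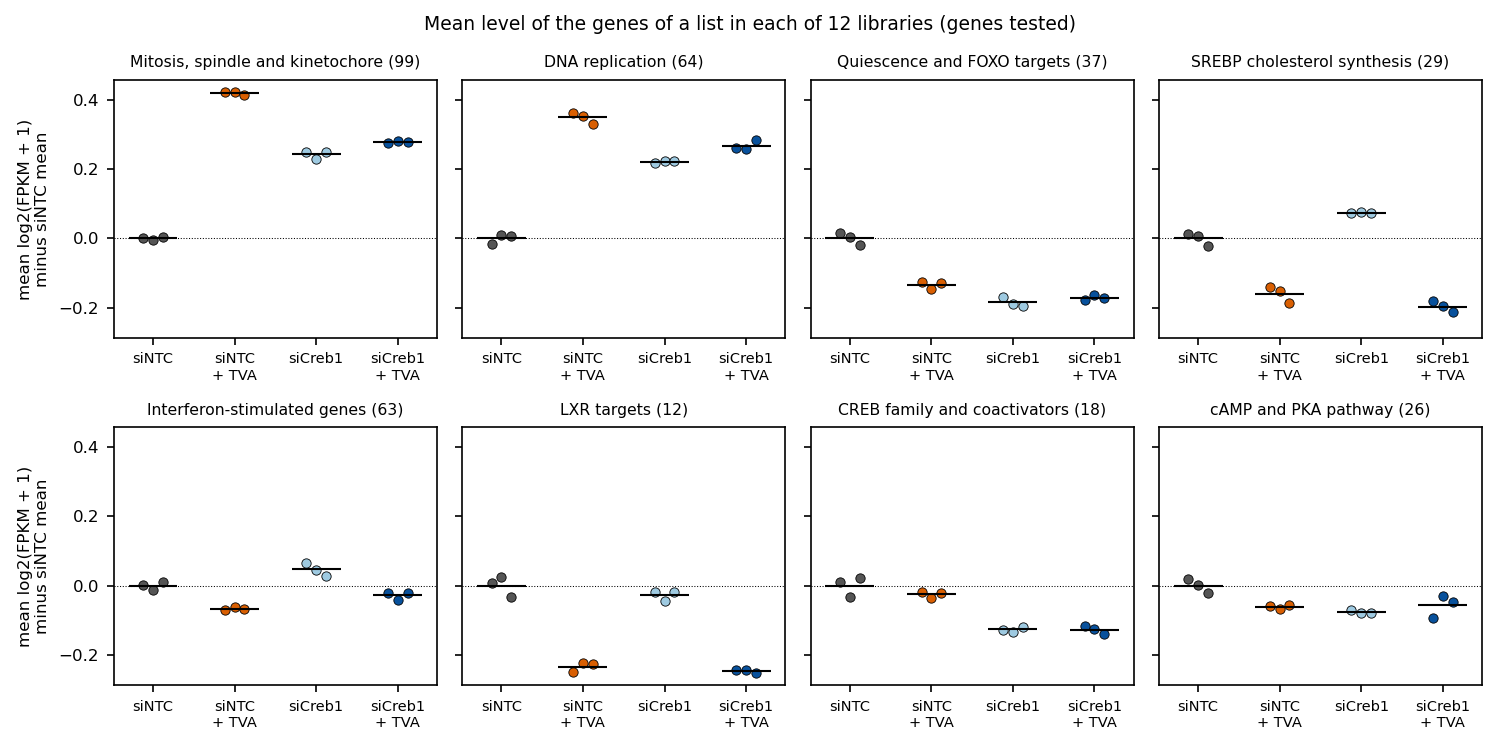
Points are the 12 libraries, each the mean log2(FPKM + 1) of the tested genes of a list minus the mean of the siNTC libraries with DMSO, and bars are group means. The mitosis and replication lists were highest in siNTC cells with TVA and higher in both siCreb1 groups than in siNTC cells with DMSO, the quiescence list was below 0 in all 3 other groups, and the sterol and LXR lists were low in both TVA groups.

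Of the genes at the replication fork, *Pclaf* (ENSMUSG00000040204, chr9:65890237-65903266), which encodes a partner of PCNA, stood at 19.8, 18.8 and 20.4 FPKM in siNTC cells, at 33.4, 36.4 and 33.8 FPKM with TVA, at 28.3, 30.2 and 27.9 FPKM in si*Creb1* cells and at 30, 30.4 and 30.6 FPKM in si*Creb1* cells with TVA. The si*Creb1* libraries all lay between the siNTC groups, and those with and without TVA overlapped. Its TVA effect was 0.78 ± 0.041 (SE) in siNTC cells and 0.075 ± 0.041 in si*Creb1* cells, and the interaction was -0.71 ± 0.058 (limma adjusted *P* = 0.00026). *Pcna*, the sliding clamp itself, stood at 102.0, 103.1 and 103.0 FPKM in siNTC cells, at 137.9, 137.2 and 139.7 FPKM with TVA, at 117.0, 117.7 and 114.6 FPKM in si*Creb1* cells and at 121.1, 118.8 and 120.4 FPKM in si*Creb1* cells with TVA. No group of *Pcna* overlapped another, and its interaction was -0.38 ± 0.026 (limma adjusted *P* = 9.21e-05). The checkpoint adaptor *Clspn* (-0.72 ± 0.074), the DNA ligase *Lig1* (-0.59 ± 0.076), the helicase cofactor *Cdc45* (-0.59 ± 0.096) and the origin recognition subunit *Orc6* (-0.59 ± 0.094) had called interactions too, with means lowest in siNTC cells with DMSO and highest in siNTC cells with TVA. Among enzymes of nucleotide synthesis, 6 of 29 had a called interaction (2.24% of all genes did), all negative, including the ribonucleotide reductase subunit *Rrm2* (-0.57 ± 0.042, limma adjusted *P* = 0.000122).

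Of the genes of mitosis, *Top2a* (chr11:98992943-99024189), the topoisomerase that disentangles chromosomes, stood at 50.6, 47.2 and 49.4 FPKM in siNTC cells, at 76.1, 79.3 and 76.7 FPKM with TVA, at 66.4, 68.6 and 66.1 FPKM in si*Creb1* cells and at 69.5, 69.6 and 71.8 FPKM in si*Creb1* cells with TVA. The groups did not overlap, and the 1.58-fold rise of its mean in siNTC cells was 1.05-fold in si*Creb1* cells, with an interaction of -0.58 ± 0.042 (limma adjusted *P* = 0.000122). *Aurkb*, the kinase of the chromosome passenger complex, stood at 14.4, 14.6 and 14.7 FPKM in siNTC cells, at 19.9, 21.5 and 21.3 FPKM with TVA, at 19.1, 18.6 and 19.7 FPKM in si*Creb1* cells and at 18.7, 16.6 and 17.6 FPKM in si*Creb1* cells with TVA. Its si*Creb1* libraries with TVA were all below the siNTC libraries with TVA (-0.23 ± 0.044, limma adjusted *P* = 0.00933). The spindle checkpoint kinase *Bub1* (interaction -0.63 ± 0.078) and the spindle motor *Kif11* (-0.57 ± 0.06) were lost in the same way. The calls of *Pclaf*, *Pcna*, *Clspn*, *Lig1*, *Cdc45*, *Orc6*, *Rrm2*, *Top2a*, *Aurkb*, *Bub1* and *Kif11* held in all 12 fits without 1 library and all 7 other fits on the same genes.

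Of the regulators, 5 of the 20 genes of the E2F and RB list had a called interaction, all negative (1.78% of all genes had a negative one). *Foxm1*, which drives the genes of mitosis, had an interaction of -0.47 ± 0.082, the repressor *E2f8* of -0.45 ± 0.073, the activator *E2f2* of -0.30 ± 0.037 and the pocket protein gene *Rbl1* of -0.35 ± 0.048 (limma adjusted *P* = 0.0134, 0.00933, 0.00254 and 0.00432). *Cdkn2c*, an inhibitor of CDK4 and CDK6, was lost too (-0.49 ± 0.076), so the class held a brake of the cycle as well as its drivers. Of the 62 genes of DNA repair and checkpoints 7 had a called interaction, all negative too, including the recombination factor *Rad51ap1* (-0.73 ± 0.094), at 3.69 to 4.15, 6.82 to 7.04, 5.22 to 6.58 and 5.62 to 5.88 FPKM.

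Lost rises outside the cell cycle included *Gzmb*, which encodes the killing protease granzyme B. It stood at 74.1, 71.7 and 71.4 FPKM in siNTC cells, at 87.2, 94.1 and 88.3 FPKM with TVA, at 95, 101.1 and 97.4 FPKM in si*Creb1* cells and at 91.4, 94.1 and 93 FPKM in si*Creb1* cells with TVA. The si*Creb1* libraries without TVA were thus all above the siNTC libraries with TVA, and the interaction was -0.38 ± 0.047 (limma adjusted *P* = 0.00254). *Cbx5*, which encodes heterochromatin protein HP1 alpha, stood at 12.2 to 12.7, 17.3 to 18.3, 17.7 to 18.1 and 17.4 to 18.4 FPKM, and *Psat1*, an enzyme of serine synthesis, at 12.4 to 12.5, 15.8 to 16.8, 15.8 to 16.1 and 15.9 to 16.1 FPKM. For both, the si*Creb1* libraries lay at or near the range of siNTC cells with TVA. The maintenance methyltransferase *Dnmt1* stood at 27.8 to 29.9, 39.4 to 40.7, 35.3 to 37.9 and 37 to 38.7 FPKM (interaction -0.41 ± 0.051).

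The lost falls held genes of T cell quiescence and egress. Of the 37 tested genes of the quiescence and FOXO target list, 18 fell with TVA in siNTC cells (2.88% of all genes did) and 0 in si*Creb1* cells by limma (0.416% of all), where 3 fell at unadjusted *P* under 0.05 and 1 with voom. The medians were -0.15 and 0.018. Of the list, 7 genes had a called positive interaction (0.459% of all genes did), with a median of 0.13. The list mean was -0.15 to -0.12 in siNTC cells with TVA, -0.19 to -0.17 in si*Creb1* cells and -0.18 to -0.16 in si*Creb1* cells with TVA, relative to siNTC cells with DMSO. The count of 7 was 2 after rescaling to TPM, 4 without the mean-variance trend and 14 with voom, and it was 4 in each fit without siNTC with TVA replicate 2 or 3, si*Creb1* replicate 1, 2 or 3, or si*Creb1* with TVA replicate 3.

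*S1pr1* (ENSMUSG00000045092, chr3:115710433-115715072), the sphingosine 1-phosphate receptor that lets T cells leave lymph nodes, stood at 199.9, 195.8 and 196.9 FPKM in siNTC cells, at 175.2, 175.1 and 177.3 FPKM with TVA, at 143.9, 144.7 and 143.9 FPKM in si*Creb1* cells and at 148.4, 148.9 and 152.5 FPKM in si*Creb1* cells with TVA. All 4 groups were apart, and both si*Creb1* groups lay below both siNTC groups. Its interaction was 0.22 ± 0.025 (limma adjusted *P* = 0.00169). *Il7r*, the receptor chain for the survival cytokine IL-7, stood at 26.9, 25.1 and 26.8 FPKM in siNTC cells, at 23.8, 22.9 and 23.5 FPKM with TVA, at 20.8, 20.3 and 19.8 FPKM in si*Creb1* cells and at 22.6, 22.1 and 21.9 FPKM in si*Creb1* cells with TVA. Both si*Creb1* groups lay below both siNTC groups here too, and the interaction was 0.28 ± 0.046 (limma adjusted *P* = 0.00899, not called after rescaling to TPM).

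The RNA decay factors *Zfp36* and *Zfp36l2*, which bind AU-rich elements, had interactions of 0.36 ± 0.053 and 0.36 ± 0.056 (limma adjusted *P* = 0.00663 and 0.00793). *Zfp36l2* stood at 197.3, 210.1 and 188.6 FPKM in siNTC cells, at 165.2, 164.2 and 161.5 FPKM with TVA, at 151.1, 139.7 and 150.7 FPKM in si*Creb1* cells and at 154.8, 158.6 and 154.9 FPKM in si*Creb1* cells with TVA, so the siNTC libraries with DMSO were the high ones. The antiproliferative gene *Btg1* (interaction 0.23 ± 0.032) and the kinase gene *Sgk1* (0.35 ± 0.06) were likewise highest there. *Dgka*, the diacylglycerol kinase that dampens T cell receptor signals, differed from them. It stood at 186.7, 190.2 and 191.1 FPKM in siNTC cells, at 171.3, 167.2 and 170.8 FPKM with TVA, at 189.6, 186.2 and 188.0 FPKM in si*Creb1* cells and at 194.7, 196.7 and 193.8 FPKM in si*Creb1* cells with TVA. The siNTC libraries with TVA were thus the low ones, and the knockdown effect on *Dgka* was -0.011 ± 0.018 without and 0.20 ± 0.018 with TVA. Its interaction was 0.21 ± 0.026 (limma adjusted *P* = 0.00277, and 0.0781 and so not called after rescaling to TPM).

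The kept responses were mostly of lipid metabolism, with 17 of the 31 kept genes on the lipid lists (89 genes tested) and 5 on the interferon list. Of the 62 genes that TVA moved in si*Creb1* cells, 24 were on the lipid lists, 8 on the interferon list and 1 on the cell cycle lists. These lists held 89, 63 and 316 of the 11550 genes tested, so the count of 1 is near the share of the cell cycle lists. Of 36 tested genes of the list of PPAR targets and fatty acid oxidation, 7 rose and 2 fell in siNTC cells (4.49% and 2.88% of all). In si*Creb1* cells 3 rose and 1 fell (0.121% and 0.416% of all). Of the 7 rises, 3 were kept, 1 was lost and 3 could not be placed. *Cpt1a* (ENSMUSG00000024900, chr19:3323301-3385732), the mitochondrial gate enzyme of fatty acid oxidation, stood at 11.4, 11.7 and 12 FPKM in siNTC cells, at 34.7, 33.6 and 35.3 FPKM with TVA, at 11.8, 11.6 and 13 FPKM in si*Creb1* cells and at 33.7, 32.3 and 33.8 FPKM in si*Creb1* cells with TVA. The groups with TVA overlapped, as did those without, and its mean rose 2.95-fold and 2.73-fold. The interaction was -0.10, with a 95% interval of -0.23 to 0.03, beside TVA effects of 1.48 and 1.38. *Hilpda*, an inhibitor of lipid droplet breakdown, stood at 7.81 to 8.29, 11.4 to 13.6, 7.38 to 7.76 and 10.8 to 10.9 FPKM (interaction -0.11, interval -0.27 to 0.062). *Acadvl*, the very long chain acyl-CoA dehydrogenase, rose in both backgrounds (0.32 ± 0.051 and 0.48 ± 0.051).

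Other kept rises were the transcription factor genes *Klf11* and *Klf10* and the small GTPase gene *Rhob*. *Klf11* stood at 1.19, 1.31 and 1.38 FPKM in siNTC cells, at 4.31, 3.85 and 4 FPKM with TVA, at 1.75, 1.39 and 1.5 FPKM in si*Creb1* cells and at 3.12, 3.49 and 3.06 FPKM in si*Creb1* cells with TVA. It rose in both, its interaction was not called (limma adjusted *P* = 0.0775), and its 95% interval of -0.64 to -0.18 lay below 0. *Rhob* stood at 2.2 to 2.57, 4.02 to 4.35, 1.57 to 1.98 and 3.54 to 3.76 FPKM.

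Of the 29 tested genes of cholesterol synthesis and its SREBP regulators, 14 fell with TVA in siNTC cells (2.88% of all genes did). In si*Creb1* cells 16 fell (0.416% of all), and the medians were -0.15 and -0.30. The interaction was called in limma for 2, both negative (1.78% of all). At unadjusted *P* under 0.05 there were 11 (1657 of all 11550 genes), and with voom 4 (449 of all). Interaction estimates were below 0 for 26 and above 0 for 3, with a median of -0.099. Most of these genes thus had a lower TVA estimate in si*Creb1* cells than in siNTC cells. The mean of this list was -0.19 to -0.14 in siNTC cells with TVA, 0.073 to 0.075 in si*Creb1* cells and -0.21 to -0.18 in si*Creb1* cells with TVA. The groups with TVA overlapped, and the si*Creb1* cells without TVA stood highest. *Mvd*, an enzyme of the mevalonate pathway, stood at 43.9, 43.3 and 44.7 FPKM in siNTC cells, at 36.4, 33.4 and 35.3 FPKM with TVA, at 47.5, 46 and 46.1 FPKM in si*Creb1* cells and at 34.1, 35.7 and 36.1 FPKM in si*Creb1* cells with TVA. Its groups with TVA overlapped and lay below those without. The synthesis genes *Lss* and *Cyp51* fell in both backgrounds as well, and the interactions of *Mvd*, *Lss* and *Cyp51*, -0.068 ± 0.048, -0.15 ± 0.063 and -0.11 ± 0.036, were not called. *Abcg1*, a cholesterol exporter and target of the LXR receptors, stood at 26.7, 23.8 and 22 FPKM in siNTC cells, at 14.6, 16 and 15.2 FPKM with TVA, at 25.2, 25.4 and 27.2 FPKM in si*Creb1* cells and at 17.3, 15.6 and 16.4 FPKM in si*Creb1* cells with TVA. Its interaction interval was -0.20 to 0.21. The desaturase gene *Scd1* fell in both (-0.49 ± 0.10 and -0.97 ± 0.10), with an interaction interval of -0.81 to -0.16 that did not pass the adjusted threshold (limma adjusted *P* = 0.135).

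Of the 63 interferon-stimulated genes tested, 11 fell with TVA in siNTC cells (2.88% of all genes did) and 8 in si*Creb1* cells (0.416% of all), with medians of -0.087 and -0.076, and 1 had a called interaction, a share near the 2.24% of all genes. The count of 8 was 1 after rescaling to TPM, 3 without the mean-variance trend, 11 with voom and as few as 2 without 1 library (si*Creb1* replicate 2, or si*Creb1* with TVA replicate 1 or 3). *Stat2*, the interferon signal transducer, stood at 16.1, 15.9 and 16.7 FPKM in siNTC cells, at 13.5, 13.7 and 13.2 FPKM with TVA, at 18.9, 17.9 and 18.4 FPKM in si*Creb1* cells and at 15.6, 16.6 and 15.9 FPKM in si*Creb1* cells with TVA. The immunity-related GTPase genes *Igtp*, *Irgm1*, *Irgm2* and *Iigp1* fell in both as well, with effects of -0.087, -0.14, -0.15 and -0.25 in siNTC cells and -0.19, -0.17, -0.19 and -0.22 in si*Creb1* cells. These GTPases are a family of related sequences, so their reads may have been split between copies.

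The enhanced falls were *Scd2*, *Hmgcs1* and *Gbp2*, a desaturase, a cholesterol synthesis enzyme and an interferon-inducible GTPase. *Scd2* (chr19:44293676-44306864) stood at 127.5, 119.5 and 120.4 FPKM in siNTC cells, at 80.4, 78.6 and 80.2 FPKM with TVA, at 155.7, 151.4 and 154.6 FPKM in si*Creb1* cells and at 84.1, 85.6 and 81.7 FPKM in si*Creb1* cells with TVA. Its interaction was -0.26 ± 0.04 (limma adjusted *P* = 0.00793), and the difference between backgrounds was 0.33 ± 0.028 without and 0.07 ± 0.028 with TVA. *Hmgcs1* and *Gbp2* had interactions of -0.21 ± 0.04 and -0.17 ± 0.037 (limma adjusted *P* = 0.0212 and 0.0403). None of these 3 calls held in every fit on the same genes.

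Of the 8 gained responses, 6 were falls. *Il2ra*, the high-affinity IL-2 receptor chain, stood at 17.7, 16.7 and 17.2 FPKM in siNTC cells, at 17.6, 17.3 and 17.7 FPKM with TVA, at 20.2, 21.2 and 19.8 FPKM in si*Creb1* cells and at 16.6, 16.6 and 16.9 FPKM in si*Creb1* cells with TVA. The si*Creb1* libraries without TVA stood above all others, and the interaction was -0.30 ± 0.045 (limma adjusted *P* = 0.00698). *Tmem97*, a sterol-regulated membrane protein gene, stood at 19.1, 17 and 17.5 FPKM, at 19.2, 19.9 and 20 FPKM, at 19.5, 20.1 and 19.5 FPKM and at 15.9, 15 and 16.5 FPKM, so here the si*Creb1* libraries with TVA were the low ones (interaction -0.44 ± 0.063). *Gpsm2*, which orients the spindle, was the reversed gene and stood at 9.06, 9.01 and 8.51 FPKM in siNTC cells, at 11.1, 10.8 and 10.7 FPKM with TVA, at 10.6, 10 and 9.96 FPKM in si*Creb1* cells and at 8.31, 8.3 and 8.81 FPKM in si*Creb1* cells with TVA. Its TVA effects were 0.27 ± 0.039 and -0.24 ± 0.039 and its interaction -0.51 ± 0.055 (limma adjusted *P* = 0.00142), called in every fit on the same genes. It no longer met the rule for a reversal with TPM, with a replicate block, or without si*Creb1* replicate 1 or si*Creb1* with TVA replicate 1 or 2.

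**Figure D4:**
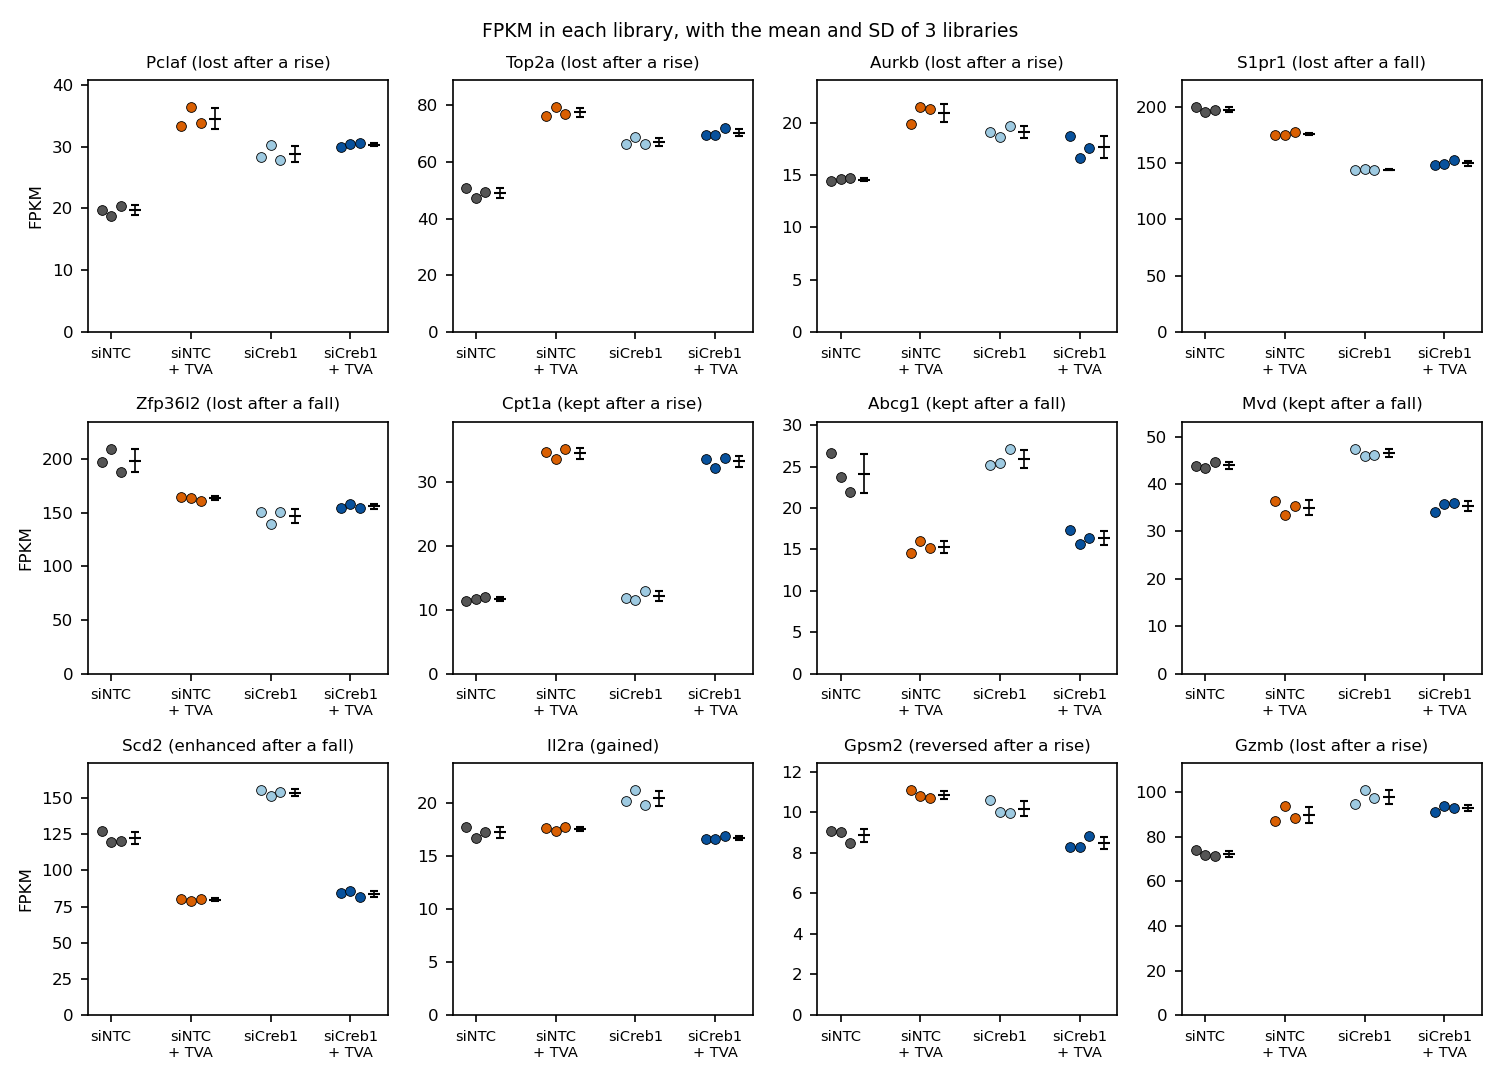
FPKM of example genes in each of the 12 libraries (points), with the mean and SD of each group of 3 beside them. Pclaf, Top2a, Aurkb and Gzmb were lowest and S1pr1 and Zfp36l2 highest in siNTC cells with DMSO. Cpt1a, Abcg1 and Mvd moved in the same direction in both backgrounds, Scd2 and Il2ra were highest in siCreb1 cells with DMSO, and Gpsm2 moved in opposite directions.

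The gained rises were *Ppbp* and *Vwf*, genes of platelets and their precursors. *Ppbp* stood at 77.7, 83.9 and 88.6 FPKM in siNTC cells, at 78.2, 80.2 and 73.5 FPKM with TVA, at 46.4, 46.9 and 49.6 FPKM in si*Creb1* cells and at 64.8, 57.6 and 62.2 FPKM in si*Creb1* cells with TVA, with an interaction of 0.47 ± 0.079 (limma adjusted *P* = 0.0116). Both si*Creb1* groups were below both siNTC groups. *Pf4*, at 68.9 to 73.9, 66.3 to 71.7, 44 to 50.1 and 51.4 to 53.7 FPKM, had an interaction of 0.24 ± 0.068 that was not called. Of the 8 erythroid and platelet markers, *Ppbp* and *Pf4* had a mean of at least 1, and the 4 haemoglobin genes were under 0.1 FPKM. The summed markers ran from 150.7 to 158.0 FPKM, 144.7 to 149.0, 91.9 to 97.1 and 111.8 to 118.5 in the 4 groups. Summed B cell markers ran from 356.8 to 363.5 FPKM, 324.2 to 335.3, 303.3 to 319.1 and 302.8 to 309.6. Of the 10, 4 had a mean of at least 1 (*Cd79a*, *Cd79b*, *Ighm* and *Ighd*), and *Pax5*, *Ebf1* and *Blnk* were under 0.1. Summed myeloid markers ran from 29.3 to 32.3 FPKM, 25.04 to 28.2, 26.3 to 28.7 and 30.6 to 30.8. Of the 15, 5 had a mean of at least 1 (*Cd68*, *Cd74*, *H2-Aa*, *Lyz2* and *H2-Ab1*), and *Adgre1*, *Mpo* and *Ly6g* were under 0.1. The interaction of all 4 tested B cell markers and all 5 tested myeloid markers was above 0, with medians of 0.27 and 0.22 against 0.0020 over all genes. None was called in limma or with voom, and 2 and 1 had an unadjusted *P* under 0.05. All 6 markers of NK and gamma delta T cells had a mean of at least 1, with sums of 50.3 to 52.8, 57.3 to 57.4, 52.0 to 56.4 and 55.9 to 59.6 FPKM. Of 5 markers of CD4 and regulatory T cells, 4 did, with sums of 7.3 to 9.0, 7.4 to 9.3, 7.3 to 8.4 and 7.9 to 8.4 FPKM. In these 2 lists no interaction was called in limma or with voom. The part of other cells in the results was not tested.

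Among the genes with a called interaction and no called TVA effect, *Hist1h1b*, a linker histone, stood at 1.95, 1.93 and 1.04 FPKM, at 2.4, 2.59 and 1.92 FPKM, at 3.35, 2.89 and 4.08 FPKM and at 2.08, 1.4 and 1.65 FPKM (interaction -1.05 ± 0.23, limma adjusted *P* = 0.0438). The chemokine gene *Ccl6* stood at 2.15, 2.37 and 2.18 FPKM, at 1.99, 1.94 and 1.37 FPKM, at 2.18, 2.52 and 1.92 FPKM and at 4.04, 3.07 and 3.88 FPKM (0.77 ± 0.16, limma adjusted *P* = 0.0352). The high values of *Hist1h1b* were in si*Creb1* cells without TVA and those of *Ccl6* in si*Creb1* cells with TVA. Neither call held in all 12 fits without 1 library.

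Of 18 tested members of the CREB family and its coactivators, 0 had a called interaction in limma, against 2.24% of all genes, 1 had an unadjusted *P* under 0.05 and 0 were called with voom, and their median was 0.046. The relatives *Crem* and *Atf1* stood at 1.16 to 1.74, 1.09 to 1.53, 1.84 to 1.9 and 1.61 to 1.9 FPKM and at 21 to 23.1, 22.3 to 24.4, 21.8 to 23.2 and 22 to 23.4 FPKM, with interactions of -0.0094 ± 0.15 and -0.054 ± 0.062. Of 26 genes of cAMP and protein kinase A signalling, 0 had a called interaction in limma. For lists of 18 and 26 genes, a count of 0 is near the share of 2.24%. Of the 26, 6 had an unadjusted *P* under 0.05 (1657 of all 11550 genes did) and 2 were called with voom (449 of all were). Their interaction estimates were above 0 for 20 and below 0 for 6, with a median of 0.086. With TVA in siNTC cells 3 fell (2.88% of all genes did), the phosphodiesterase genes *Pde3b*, *Pde4d* and *Pde7a*. Of 38 immediate early and classical CREB target genes 5 had a called interaction (2.24% of all genes did). *Ccna2* and *Pcna*, which belong to the cell cycle, were lost rises, and *Btg1*, *Sgk1* and *Zfp36* were lost falls. The well known targets *Nr4a1*, *Egr1*, *Per1* and *Sik1* had interactions of -0.03 ± 0.15, 0.037 ± 0.077, 0.12 ± 0.081 and 0.35 ± 0.092, none called.

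Of the 23 cytotoxic effector genes, 4 had a called interaction (2.24% of all genes did), *Gzmb*, *Nkg7* and *Serpinb6b* after a rise and *Ccl5* after a fall. The calls of *Nkg7* and *Ccl5* held in 3 and 5 of the 8 other fits on all libraries and in 1 and 3 of the 12 fits without 1 library. The pore-forming gene *Prf1* stood at 8.73 to 10.8, 9.23 to 11.1, 7.3 to 7.81 and 7.83 to 10.5 FPKM (interaction interval -0.095 to 0.54), and *Ifng* at 1.2 to 1.45, 0.759 to 1.53, 0.997 to 1.33 and 0.926 to 1.26 FPKM (-0.34 to 0.51). Of the genes the study discusses as targets, *Tbx21*, *Ilf2*, *Bcl6* and *Foxo4* had interactions of -0.13 ± 0.13, -0.091 ± 0.078, 0.38 ± 0.13 and 0.32 ± 0.087, none called, and *Il18* and *Ebi3* were below the filter. The estimates of *Bcl6* and *Foxo4* were large beside their SE. The study picked these genes by another rule, a change in siNTC cells with TVA alone against the other groups. It also knocked down each gene and reports that this partly reversed the effect of TVA on cell number.

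No interaction was called in limma among 80 cytosolic and 77 mitochondrial ribosomal protein genes, 78 nuclear genes of oxidative phosphorylation or 46 proteasome genes. Of all genes tested, 2.24% were called. At unadjusted *P* under 0.05 there were 8, 6, 13 and 7 of them, against 1657 of all 11550 genes. With voom there were 3, 0, 1 and 1, against 449 of all 11550 genes. Their median interactions were -0.038, -0.036, -0.081 and -0.051. The 95% interval of a typical gene reached 0.20 to either side, and the counts do not show that these genes responded alike in both backgrounds.

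**Figure D5:**
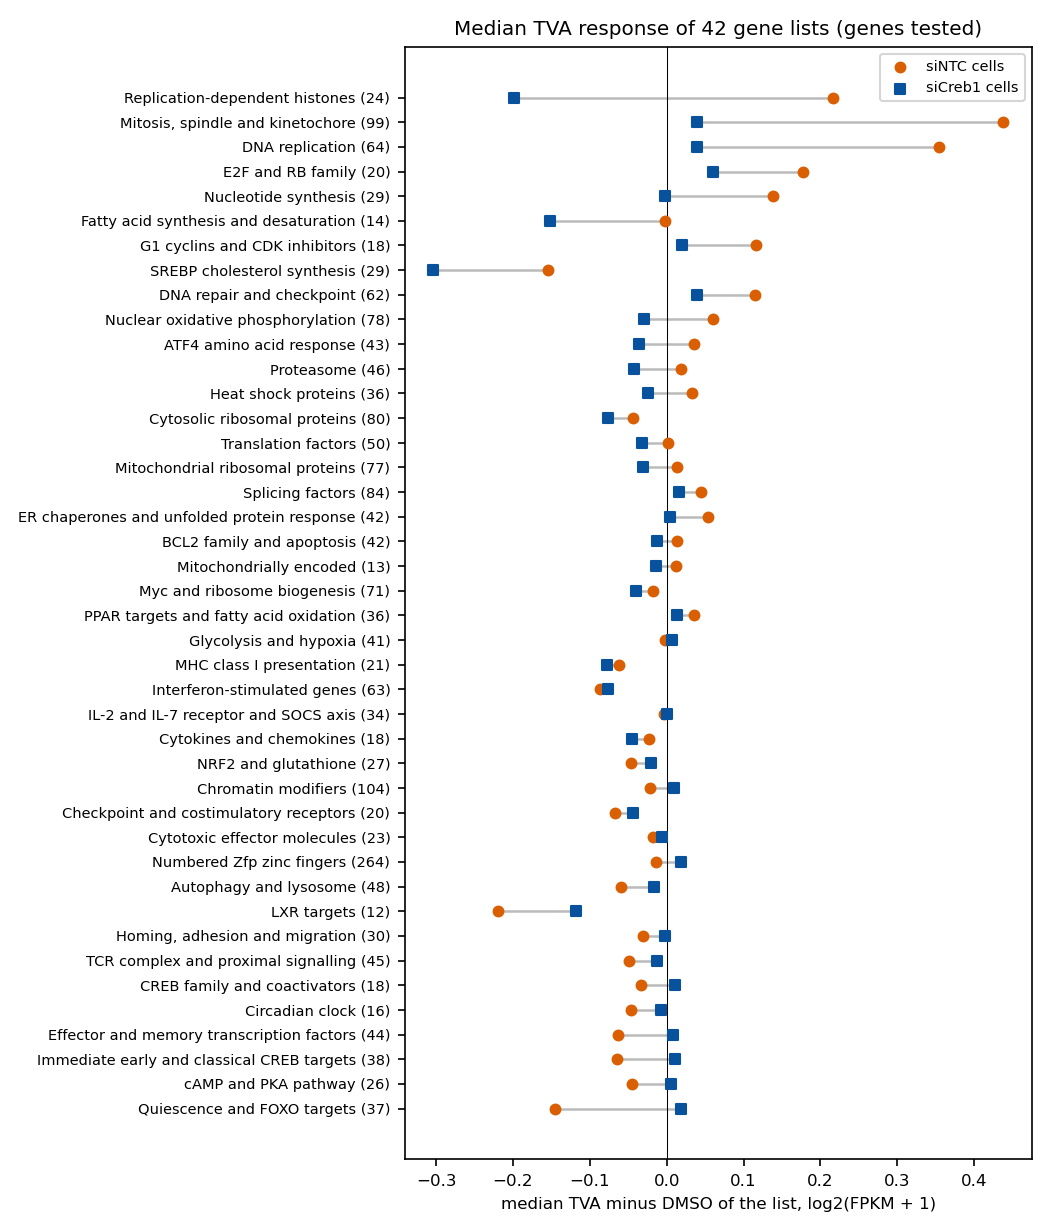
Each row is 1 of 42 gene lists with its number of tested genes, with the median TVA effect in siNTC cells and in siCreb1 cells as differences of log2(FPKM + 1). The mitosis list had medians of 0.44 in siNTC cells and 0.039 in siCreb1 cells, whereas the SREBP list was below 0 in both.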

How the data were processed

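RNA from primary mouse CD8+ T cells was sequenced by the authors in 12 libraries, 3 in each of 4 groups set by the sample titles. The authors deposited 1 table of FPKM values per library, normalized to gene length and library size, against GRCm38 (mm10) per the submitters' processing notes. The aligner, counter and strand setting are not given in the sources used here, so reads of overlapping or antisense genes may not be told apart. Genes whose FPKM averaged 1 or more across all libraries were kept, and log2(FPKM + 1) was fitted with limma 3.58.1 (R 4.3.3), with 1 coefficient per group, no covariate and a mean-variance trend. *P* values were two-sided and adjusted by Benjamini-Hochberg over the 11550 genes, at a threshold of 0.05. Values stepped as whole reads in at least 99.995% of entries of each library, which gave the read totals and allowed voom on the recovered reads as an alternative. Fragment totals set the precision of low genes. In simulated data with an assumed spread, the interaction fit recovered 110 of 197 changed genes, with 3 false calls. It recovered 86 of 96 changes of 1 log2 and 24 of 101 of 0.5 log2, so an interaction of the smaller size can be missed. The fit was repeated with a pseudocount of 0.1, with every gene above 0, a minimum of 5 FPKM, quantile normalization, TPM, no trend, voom, a replicate block and leaving out each library.

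The gene lists, the classes, the promoter words and the members described were chosen with earlier results of these data known. Genes were named as follows. They were *Creb1*, the 12 most negative and 12 most positive called interactions, the 6 protein-coding genes per class with the largest interaction (for kept, the largest mean TVA effect), up to 6 called members per list or, with none, the 2 most expressed, *Crem*, *Atf1* and the genes the study discusses. Of these candidates a selection is described. Other genes, such as *Asf1b*, the genes with a promoter word, the phosphodiesterase genes, *Pf4*, *Prf1*, *Ifng*, *Nr4a1*, *Egr1*, *Per1*, *Sik1* and several of the lipid and interferon genes, were chosen after their values were seen. Some results are not reported here.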

Additional observations from a re-analysis of the deposited data

Results flagged for a closer look

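By limma's test of the interaction itself, 259 genes responded to TVA differently in the 2 backgrounds, of which 191 were rises and 42 were falls that were lost. The other 26 genes drew attention one by one, each because its TVA effect differed between the backgrounds in the same test, and their interactions on the log2(FPKM + 1) scale follow. Gained responses were those of *Vwf* (0.33), *Myl10* (-0.29), *Wars* (-0.22), *Il2ra* (-0.30), *Plac8* (-0.25), *Ppbp* (0.47), *Tmem97* (-0.44) and *2310009B15Rik* (-0.53). Enhanced falls were those of *Scd2* (-0.26), *Gbp2* (-0.17) and *Hmgcs1* (-0.21). The reversed response was that of *Gpsm2* (-0.51). No TVA effect was called in either background for *Dennd1c* (0.22), *Fhod1* (0.22), *Med11* (-0.28), *Ccl6* (0.77), *Slc17a9* (0.30), *Cd7* (0.23), *Bag1* (-0.16), *Aldoa* (0.17), *Larp1* (-0.18), *Akna* (0.17), *Clcf1* (0.23), *Ggcx* (0.39), *Prelid2* (-0.51) and *Hist1h1b* (-1.05). Of these 26, *Tmem97*, *Ppbp* and *Gpsm2* were called in all 12 fits without 1 library and in all 7 other fits on the same genes.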

How the results depend on the processing

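The direction of all 259 called interactions was the same under every alternative that tested them, and the cause of the changes in the counts below was not tested. All alternatives reuse the libraries that chose these genes, so the shared direction is no independent check. Across these alternatives 72.4% to 87.5% of the called interactions were negative, against 79.5%, and the median of all genes moved by 0.010 or less. With TPM the split of TVA calls in siNTC cells was 402 up and 154 down, against 519 and 333. Same-numbered libraries did not deviate together (correlations of -0.059 to 0.060). These values show no pairing by number but cannot exclude it, because the spread of single libraries can hide a small shared effect. The replicate block gave 195 interaction calls. With a pseudocount of 0.1, the values were -0.46 (mitosis list median, against -0.43) and -0.35 (replication list median, against -0.29). With all 29700 genes above 0, the values were 28 (positive interaction calls, against 53), 563 (TVA calls in siNTC cells, against 852), 992 (knockdown calls without TVA, against 1586), 683 (knockdown calls with TVA, against 1172), 20 (lost falls, against 42), 19 (kept responses, against 31), 5 (gained responses, against 8) and 5 (interferon list falls in si*Creb1* cells, against 8). With a minimum of 5 FPKM, the values were 2 (reversed responses, against 1). With quantile normalization, the values were 5 (interferon list falls in si*Creb1* cells, against 8). With TPM, the values were 152 (interaction calls, against 259), 133 (negative interaction calls, against 206), 19 (positive interaction calls, against 53), 556 (TVA calls in siNTC cells, against 852), 37 (TVA calls in si*Creb1* cells, against 62), 740 (knockdown calls with TVA, against 1172), 15 (lost falls, against 42), 20 (kept responses, against 31), 2 (gained responses, against 8), 0 (enhanced responses, against 3), 0 (reversed responses, against 1), 6 (interactions with no called TVA effect, against 14), 2 (quiescence list interaction calls, against 7), 1 (interferon list falls in si*Creb1* cells, against 8), -0.45 (mitosis list median, against -0.43) and -0.34 (replication list median, against -0.29). Without the trend, the values were 28 (positive interaction calls, against 53), 20 (lost falls, against 42), 5 (gained responses, against 8), 1 (enhanced responses, against 3), 9 (interactions with no called TVA effect, against 14), 4 (quiescence list interaction calls, against 7) and 3 (interferon list falls in si*Creb1* cells, against 8). With voom, the values were 449 (interaction calls, against 259), 325 (negative interaction calls, against 206), 124 (positive interaction calls, against 53), 161 (TVA calls in si*Creb1* cells, against 62), 95 (lost falls, against 42), 58 (kept responses, against 31), 25 (gained responses, against 8), 5 (enhanced responses, against 3), 7 (reversed responses, against 1), 34 (interactions with no called TVA effect, against 14), 14 (quiescence list interaction calls, against 7), -0.46 (mitosis list median, against -0.43) and -0.35 (replication list median, against -0.29). With the replicate block, the values were 26 (positive interaction calls, against 53), 34 (TVA calls in si*Creb1* cells, against 62), 22 (lost falls, against 42), 1 (gained responses, against 8), 0 (reversed responses, against 1) and 3 (interferon list falls in si*Creb1* cells, against 8). With an unadjusted threshold for the TVA effect in si*Creb1* cells, the values were 25 (lost falls, against 42), 146 (kept responses, against 31), 22 (gained responses, against 8), 36 (reversed responses, against 1) and 0 (interactions with no called TVA effect, against 14). Leaving out 1 library gave 168 to 237 interaction calls, 22 to 49 positive interaction calls, 558 to 767 TVA calls in siNTC cells, 30 to 67 TVA calls in si*Creb1* cells, 1020 to 1532 knockdown calls without TVA, 599 to 1245 knockdown calls with TVA, 18 to 37 lost falls. It also gave 1 to 8 gained responses, 1 to 3 enhanced responses, 0 to 3 reversed responses, 7 to 24 interactions with no called TVA effect, 4 to 6 quiescence list interaction calls, 2 to 7 interferon list falls in si*Creb1* cells, -0.43 to -0.40 (mitosis list median) and -0.13 to -0.092 (sterol list median). Low FPKM limits what can be seen of *Hist1h1b*, *Ccl6* and *Klf11*, and an uncalled interaction does not show that responses were alike.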
